A study of Mus musculus with 4 samples.

Results

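The 7 genes described here were grouped as encoding abundant cytosolic and secreted proteins of late neutrophils. Of these products, Pglyrp1 is a granule protein and Hp is also made by granulocyte precursors. The 7 are S100a8 and S100a9, the calcium-binding subunits of calprotectin, with Retnlg, Wfdc21, Hp, Pglyrp1 and Anxa1. They were taken by symbol from a deposited table of 15607 genes, and all 7 had counts in every library. RNA came from sorted lineage-negative bone marrow cells of 4 mice, that is, from marrow depleted of cells carrying surface markers of the mature blood lineages. The sample titles name the cells HSCs (hematopoietic stem cells), a narrower name. The wild type animals are numbered 1 and 3, and those with a conditional Mel18 knockout, made for the hematopoietic system, 5 and 6. Mel18, encoded by Pcgf2, is a subunit of the Polycomb repressive complex PRC1, and the study asked whether its loss alters transcription in blood stem and progenitor cells. The labels do not state the driver or the exons of the conditional allele, the strain, the age or the antibodies of the sort.

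Neutrophils form in the marrow in stages. Promyelocytes make the primary granule proteins, myelocytes and metamyelocytes fill the secondary and tertiary granules, and band and segmented cells carry large cytosolic stores of calprotectin. Calprotectin is a heterodimer that withholds zinc and manganese from microbes and, once released, can act on the receptors encoded by Tlr4 and Ager.

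Total counts ranged from 35599564 to 46240864 per library. The knockout libraries held 303 and 321 counts of Pcgf2, more than the 210 and 158 of wild type, so no loss of the targeted transcript was seen. With the deleted exons not stated, this count over the whole gene does not check the genotype, and every direction given here compares libraries by their labels. The progenitor markers Kit (7053 to 10987 counts) and Cd34 (4632 to 6860 counts) were present in every library. So were those of neutrophils, including Ly6g, the surface antigen of granulocytes (1556 to 3119 counts). Mice of the same group were unevenly close, with a median absolute difference over all genes, on the log2 scale, of 0.18 between the wild type mice and 0.11 between the knockout mice. In bulk RNA, fewer cells of a type and less RNA per cell cannot be told apart, which touches every value below.

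The 7 genes lie on 6 chromosomes in the mm10 coordinates of the deposited table, with S100a8 and S100a9 together on chromosome 3. S100a8 runs from 90668978 to 90670035 on the plus strand and S100a9 from 90692632 to 90695721 on the minus strand. Retnlg is on chromosome 16 (48872621 to 48874496), Wfdc21 on chromosome 11 (83746940 to 83752642), Hp on chromosome 8 (109575128 to 109579172), Pglyrp1 on chromosome 7 (18871331 to 18890459) and Anxa1 on chromosome 19 (20373428 to 20390944). Each count covers all annotated exons of a protein-coding gene, UTRs included, and no exon of these genes overlaps an exon of another gene in GENCODE M21. Of the 50-base stretches in their transcripts, those of Pglyrp1 were in part shared with transcripts of other genes (49 of 1836), and 0 were shared for the other 6 genes.

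The stretches just upstream of the calprotectin genes and of Retnlg, the gene with the largest fold change of the 7, are shown because these genes were low in the same libraries. They are the 250 bases before the RefSeq start sites (build GRCm38.p6), written 5′ to 3′ on the strand of the gene. Capitals mark the letters TATAAA of a TATA box and the letters TTNNGNAA of a C/EBP type motif, on either strand. C/EBP factors are transcription factors of granulocyte development. The S100a8 stretch is chr3:90668821-90669070 (plus strand), the S100a9 stretch chr3:90695722-90695971 (minus strand) and the Retnlg stretch chr16:48872358-48872607 (plus strand). GENCODE M21 has a longer S100a8 transcript that begins inside the first of them.
S100a8: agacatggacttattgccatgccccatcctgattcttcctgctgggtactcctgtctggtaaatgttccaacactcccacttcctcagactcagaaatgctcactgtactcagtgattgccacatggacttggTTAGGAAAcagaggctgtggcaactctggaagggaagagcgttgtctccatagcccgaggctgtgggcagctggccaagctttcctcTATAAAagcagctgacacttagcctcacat
S100a9: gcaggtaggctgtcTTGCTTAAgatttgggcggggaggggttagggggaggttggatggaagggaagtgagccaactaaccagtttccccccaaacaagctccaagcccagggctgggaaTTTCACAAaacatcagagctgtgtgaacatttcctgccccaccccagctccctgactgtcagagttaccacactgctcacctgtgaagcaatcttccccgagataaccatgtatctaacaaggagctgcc
Retnlg: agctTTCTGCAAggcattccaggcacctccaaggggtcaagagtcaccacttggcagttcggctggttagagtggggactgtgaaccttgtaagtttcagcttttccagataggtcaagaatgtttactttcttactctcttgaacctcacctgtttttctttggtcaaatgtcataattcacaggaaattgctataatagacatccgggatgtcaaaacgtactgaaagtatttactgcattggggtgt

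The S100a8 stretch holds TATAAA at positions -30 to -25, counted back from the start site, and a C/EBP type match at -117 to -110. The S100a9 stretch has C/EBP type matches at -236 to -229 and -130 to -123, and the Retnlg stretch has 1 at -246 to -239. RefSeq stretches were at hand for 5 of the 7 genes, and the C/EBP type letters were in 4 of them (not Pglyrp1), against 36.8% of all 32851 stretches of the same length. TATAAA was in 2, S100a8 and Anxa1, against 12.4%. The letters GAGGAA, typical of sites of the myeloid factor PU.1, were in 3 (S100a8, Pglyrp1 and Anxa1), against 23.3%. No match overlapped another in these stretches. A match to such short letters describes the sequence and is not evidence of a bound site.

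Per length of annotated exons, calprotectin was among the most abundant messages of these cells. Levels between genes are compared here in RPKM, read counts scaled by library depth and by the merged length of all annotated exons. That length can exceed the length of the transcript in use, which would lower the RPKM of a gene. S100a9 averaged 9811 RPKM over the 4 libraries and ranked 2 of 15607 genes, and S100a8 averaged 4763 RPKM and ranked 3. Retnlg followed at 715 RPKM (rank 40), ahead of Hp (479 RPKM, rank 55), Wfdc21 (255 RPKM), Anxa1 (221 RPKM) and Pglyrp1 (190 RPKM). The first 2 genes stood apart from the rest in every library. In this order the ranges of Retnlg (486 to 996 RPKM) and Hp (433 to 581 RPKM) overlap, as do those of Wfdc21 (194 to 348 RPKM), Anxa1 (169 to 279 RPKM) and Pglyrp1 (155 to 257 RPKM).

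**Figure D1:**
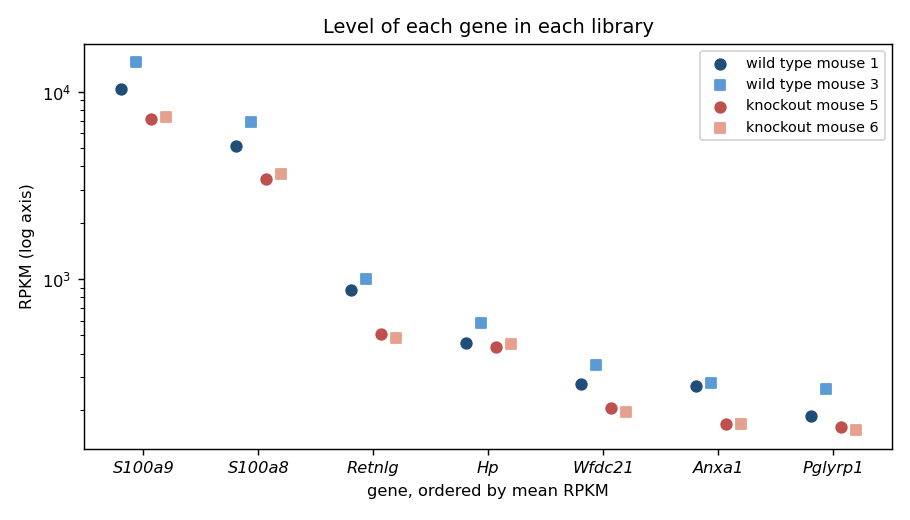
RPKM of the 7 genes (log axis) in each of the 4 libraries, 1 point per mouse, with genes ordered by mean RPKM. S100a9 and S100a8 lie above the other 5 genes in every library, and the points of both knockout mice lie below those of both wild type mice for each gene.

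The calprotectin genes took 0.919% of all counts in wild type mouse 1 (95% exact binomial interval 0.916 to 0.923%) and 1.20% in wild type mouse 3 (1.19 to 1.20%). In knockout mice 5 and 6 the shares were 0.612% (0.610 to 0.615%) and 0.635% (0.633 to 0.637%). These intervals cover counting error only, and the distance between the 2 wild type mice was far wider than they are. All 7 genes together took 1.17% and 1.48% in wild type, and 0.800% and 0.822% in knockout.

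Within a gene, libraries are compared in CPM, counts scaled to a common depth with TMM factors. S100a8 measured 3554 CPM in mouse 1 and 4777 CPM in mouse 3, both wild type, as against 2372 CPM in knockout mouse 5 and 2519 CPM in knockout mouse 6. S100a9 measured 5394 CPM in mouse 1 and 7507 CPM in mouse 3, both wild type, as against 3755 CPM in knockout mouse 5 and 3829 CPM in knockout mouse 6. For both subunits the knockout mice lay close together below wild type mouse 1, and wild type mouse 3 was the highest library. The log2 fold change of S100a8, knockout minus wild type, was -0.77 ± 0.18 (SE) and that of S100a9 was -0.77 ± 0.20 (SE), a level about 41.3% and 41.2% lower. The subunits kept nearly the same proportion to each other in all libraries. In raw counts the ratio of S100a9 to S100a8 was 1.52 (mouse 1) and 1.57 (mouse 3) in wild type. In knockout it was 1.58 (mouse 5) and 1.52 (mouse 6). The ratio of S100a9 to S100a8 in RPKM was 2.02 (mouse 1) and 2.09 (mouse 3) in wild type, with 2.10 (mouse 5) and 2.02 (mouse 6) in knockout, so the groups overlapped in it.

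Retnlg, a small cysteine-rich protein of the resistin-like family that neutrophils secrete, had the widest distance between the groups among the 7. It measured 518 CPM in mouse 1 and 590 CPM in mouse 3, both wild type, as against 299.9 CPM in knockout mouse 5 and 288 CPM in knockout mouse 6. The lowest wild type library exceeded the highest knockout library by 0.79 on the log2 scale, while the wild type mice differed by 0.19. Its log2 fold change was -0.92 ± 0.10 (SE).

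Wfdc21, a secreted protein with a whey acidic protein fold, measured 119 CPM in mouse 1 and 151 CPM in mouse 3, both wild type, as against 88.4 CPM in knockout mouse 5 and 84.1 CPM in knockout mouse 6. The groups did not overlap, and the distance between them (0.42 on the log2 scale) was only a little wider than that between the wild type mice (0.35). Its log2 fold change was -0.64 ± 0.12 (SE).

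Hp encodes haptoglobin, the plasma protein that binds free hemoglobin, which granulocyte precursors also make. It measured 727 CPM in mouse 1 and 933 CPM in mouse 3, both wild type, as against 695 CPM in knockout mouse 5 and 722 CPM in knockout mouse 6. Wild type mouse 1 was nearly level with the knockout mice (a distance of 0.011 on the log2 scale to the nearer of them), and wild type mouse 3 alone stood high. The log2 fold change of -0.23 ± 0.14 (SE) rests on that mouse, and without it the value was -0.046.

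Pglyrp1, a granule protein that binds the peptidoglycan of bacterial walls, showed a similar order of libraries. It measured 340 CPM in mouse 1 and 473 CPM in mouse 3, both wild type, as against 299 CPM in knockout mouse 5 and 285 CPM in knockout mouse 6. The wild type mice differed by 0.48 on the log2 scale, more than the 0.18 between wild type mouse 1 and the nearer knockout mouse. The log2 fold change was -0.48 ± 0.16 (SE), and -0.23 without wild type mouse 3.

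Anxa1 encodes annexin A1, a calcium-dependent phospholipid-binding protein that limits neutrophil recruitment through formyl peptide receptors. It measured 780 CPM in mouse 1 and 811 CPM in mouse 3, both wild type, as against 492 CPM in knockout mouse 5 and 491 CPM in knockout mouse 6. Mice of the same group were closest together here, with 0.056 on the log2 scale between the wild type mice and 0.67 between the groups. Its log2 fold change was -0.69 ± 0.10 (SE).

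**Figure D2:**
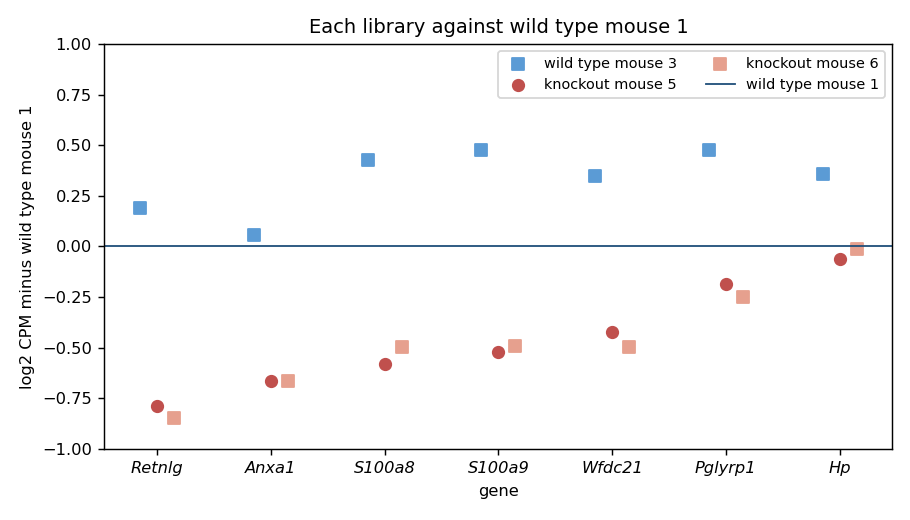
Difference in log2 CPM of wild type mouse 3 and of knockout mice 5 and 6 from wild type mouse 1 (horizontal line at 0), for each gene, 1 point per mouse. Knockout points lie lowest for Retnlg and Anxa1 and close to the line for Hp, while wild type mouse 3 lies above the line for all 7 genes, by 0.056 for Anxa1 to 0.48 for S100a9 and Pglyrp1.

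In the edgeR quasi-likelihood fit over all 15607 genes, Retnlg passed the Benjamini-Hochberg threshold of 0.05 (adjusted p = 0.0449) and the other 6 genes did not. The next were Anxa1 (adjusted p = 0.0848 by quasi-likelihood), Wfdc21 (0.165), S100a8 (0.281), S100a9 (0.311), Pglyrp1 (0.455) and Hp (0.655). So 1 of 7 was called lower, against 0.103% of all genes. The groups did not overlap, with knockout the lower, for 7 of 7, against 20.9% of all genes. The 7 genes were chosen by their role with the counts of this same comparison already known, so these values describe them and support nothing further. DESeq2 and the edgeR likelihood ratio test called 5 of 7 lower each, against 1.08% and 0.769% of all genes. Under 3 other settings 0 of 7 were called, with Retnlg at an adjusted p of 0.0923 by limma voom, 0.0788 by edgeR quasi-likelihood without robust estimation and 0.0520 by quasi-likelihood after a filter of 1 CPM in 2 libraries. Without wild type mouse 1 the quasi-likelihood test called 6 of 7 lower (1.58% of all genes), and without wild type mouse 3 it called 3 of 7 (2.82%). The authors' deposited table gives adjusted p-values under 0.05 to 5 of the 7 (not to Pglyrp1 at 0.222 and Hp at 0.884), against 0.762% of all genes called lower there. Its values lie close to those of the likelihood ratio test used here, so they add no separate check. For S100a8 the adjusted p was 0.00783 in that table and 0.00784 by the likelihood ratio test. The call of Retnlg was lost without knockout mouse 5 (quasi-likelihood adjusted p = 0.408) and without knockout mouse 6 (0.223), where its log2 fold change was -0.95 and -0.89.

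The 7 genes were higher in wild type mouse 3 than in mouse 1 by 0.056 to 0.48 on the log2 scale, with a median of 0.36. The median difference was 0.021 over all genes and 0.12 over the 2641 genes with a mean of at least 100 CPM. Between knockout mice 5 and 6 they differed by -0.072 to 0.087. Against wild type mouse 1 alone the mean of the knockout mice differed by a median of -0.51 over the 7 genes, and against wild type mouse 3 alone by a median of -0.81.

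**Figure D3:**
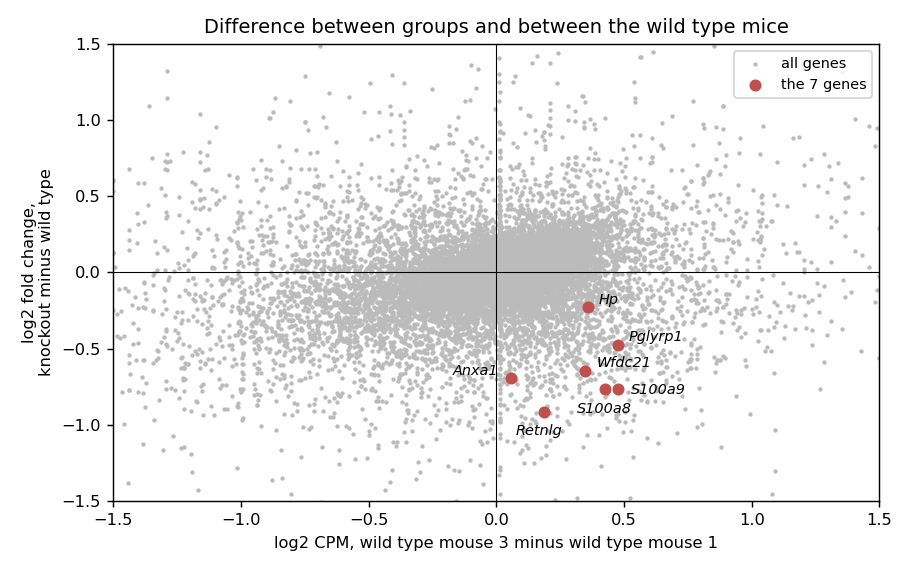
Log2 fold change between the groups (vertical axis) against the log2 difference between the wild type mice (horizontal axis) for all genes (grey) and the 7 genes (red), with 354 genes outside the axes. Retnlg and Anxa1 combine a low fold change with a small difference between the wild type mice, whereas S100a9, S100a8 and Pglyrp1 lie farther to the right.

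Other neutrophil genes were read from lists, to place the 7 within the stages of the lineage. The lists were chosen with earlier results of these data known, so their counts are descriptions. Over all genes, the share called lower was 0.103% by quasi-likelihood, 1.08% by DESeq2 and 0.769% by the likelihood ratio test. The genes of secondary and tertiary granules were low in the same libraries as calprotectin. Of 16 measured, 0 passed the quasi-likelihood test over all genes (14 at an unadjusted p under 0.05; DESeq2 called 9 lower, the edgeR likelihood ratio test 6 and limma voom 0), while scaling by total counts gave 1 lower by quasi-likelihood. Their median log2 fold change was -0.63, against -0.0053 over all genes. The groups did not overlap, with knockout the lower, for 16 of 16, against 20.9% of all genes. The neutrophil collagenase Mmp8 averaged 288 ± 34.8 CPM in wild type and 166 ± 0.656 CPM among the knockout libraries (SD, n = 2), a log2 fold change of -0.80 with an edgeR quasi-likelihood adjusted p = 0.0572. The granule protein Ngp, the most abundant of them, measured 4461 CPM in mouse 1 and 6401 CPM in mouse 3, both wild type, as against 3058 CPM in knockout mouse 5 and 3026 CPM in knockout mouse 6. Wild type mouse 3 was the highest library for Ngp, as it was for S100a8 and S100a9.

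Primary granule genes, made at the promyelocyte stage, numbered 10 in the table, and the median of their log2 fold changes was -0.11. None passed the quasi-likelihood test (0 of 10, with 2 at an unadjusted p under 0.05; DESeq2 and the likelihood ratio test called 1 lower each, and limma voom 0). Their summed level was 20773 and 22123 CPM in wild type and 22925 and 20652 CPM in knockout, so the groups overlapped in the sum. Gene by gene, the groups did not overlap, with knockout the lower, for 4 of 10, against 20.9% of all genes. For 1 of 10 they did not overlap with knockout the higher. The lowest p in the list was that of Mgst1 (log2 fold change -0.46, edgeR quasi-likelihood adjusted p = 0.165), a microsomal glutathione transferase and not itself a granule protein. The difference between the primary granule list and the 7 genes was not tested.

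Among late cytosolic genes, 1 of 13 fell (against 0.103% of all genes), 0 rose and 12 did not pass. Their median log2 fold change was -0.52. DESeq2 called 4 of them lower, the likelihood ratio test 5, and limma voom and quasi-likelihood without robust estimation 0. Despite the name of the list, the gene that fell was Ifitm6, a membrane protein of the interferon-induced transmembrane family. It averaged 145 ± 6.62 CPM in wild type and 77.7 ± 3.95 CPM among the knockout libraries (SD, n = 2), a log2 fold change of -0.90 with an edgeR quasi-likelihood adjusted p = 0.0260. For the stefin A gene Stfa2l1, a cystatin-type protease inhibitor, the log2 fold change was -1.91 (adjusted p = 0.0514 in the same edgeR fit) at 8.36 ± 2.10 CPM in wild type, against 2.22 ± 0.351 CPM among the knockout libraries (SD, n = 2). Stefin A genes are close copies of each other, and the division of reads among them is uncertain.

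Late surface genes showed 2 of 17 that fell (against 0.103% of all genes), 0 that rose and 15 that did not pass. Their median log2 fold change was -0.58. DESeq2 called 9 lower here and the likelihood ratio test 8, whereas a filter of 1 CPM in 2 libraries left 1, and limma voom and quasi-likelihood without robust estimation gave 0. The chemokine receptor Cxcr2, which draws mature neutrophils out of the marrow, averaged 84.2 ± 4.70 CPM in wild type and 52.8 ± 0.945 CPM among the knockout libraries (SD, n = 2), a log2 fold change of -0.67 with an edgeR quasi-likelihood adjusted p = 0.0449. The formyl peptide receptor Fpr2, on which annexin A1 acts, averaged 46.9 ± 3.36 CPM in wild type and 24.0 ± 1.21 CPM among the knockout libraries (SD, n = 2), a log2 fold change of -0.97 with an adjusted p = 0.0353 in the same edgeR fit. Unlike S100a8 and S100a9, Fpr2 was no higher in wild type mouse 3 (44.5 CPM) than in mouse 1 (49.3 CPM). The inhibitory receptor Lilrb4a (log2 fold change -0.81, edgeR adjusted p = 0.0631) and the chemokine receptor Ccr1 (-0.52, edgeR adjusted p = 0.105) did not pass. Without knockout mouse 5, or without knockout mouse 6, the quasi-likelihood test called 0 of the listed genes lower, so the calls of Ifitm6, Cxcr2 and Fpr2 were lost.

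**Figure D4:**
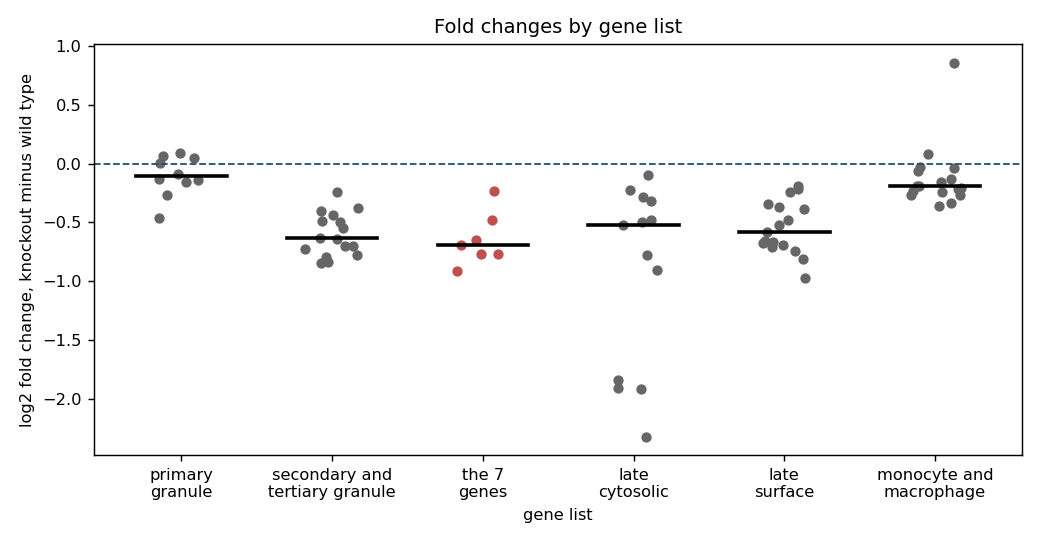
Log2 fold change, knockout minus wild type, of each gene (points) in 5 gene lists and in the 7 genes described here (red), with the median of each list (black bar) and the median over all genes (dashed line). Medians are -0.11 for primary granule genes, -0.63 for secondary and tertiary granule genes, -0.69 for the 7 genes, -0.52 and -0.58 for late cytosolic and late surface genes, and -0.19 for monocyte and macrophage markers.

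Receptors through which these products are known to act were measured too. Of 9 genes, 1 fell (Fpr2, against 0.103% of all genes), 0 rose and 8 did not pass the quasi-likelihood test. Their median log2 fold change was -0.39. In this list DESeq2 called 3 lower, the likelihood ratio test 2, and limma voom and quasi-likelihood without robust estimation 0. For Fpr1 the log2 fold change was -0.66 (edgeR adjusted p = 0.141). Cd14, a coreceptor of Tlr4, had -0.66 (edgeR adjusted p = 0.230), and Tlr4 itself had -0.24 (edgeR adjusted p = 0.593).

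The close relatives of the 7 genes had medians nearer to that of all genes. Among 6 measured S100 genes, 0 passed the quasi-likelihood test (2 at an unadjusted p under 0.05; DESeq2 called 2 lower, the likelihood ratio test 1 and limma voom 0), and their median log2 fold change was -0.15. The most abundant in RPKM were S100a11 (225 RPKM, log2 fold change -0.47), S100a10 (109 RPKM, -0.078), S100a6 (98.8 RPKM, -0.49) and S100a1 (54.0 RPKM, -0.15), well under the 4763 RPKM of S100a8. Among 8 measured annexins other than Anxa1, 0 passed (1 at an unadjusted p under 0.05, and 0 by DESeq2, the likelihood ratio test and limma voom). Their median log2 fold change was -0.15 and their range -0.22 to 0.048, whereas Anxa1 had -0.69. Anxa2 (101 RPKM), Anxa5 (93.3 RPKM), Anxa6 (85.7 RPKM) and Anxa3 (52.9 RPKM) were the most abundant. Pglyrp2 was the single measured relative of Pglyrp1 and Retnlg in the list, with a log2 fold change of -0.26 that did not pass (edgeR adjusted p = 0.771). The difference between the 7 genes and their relatives was not tested.

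Transcription factors of the granulocyte lineage gave no call. Of 10, 0 passed the quasi-likelihood test (1 at an unadjusted p under 0.05, and 0 by DESeq2, the likelihood ratio test and limma voom), with a median log2 fold change of -0.11. Cebpe, the factor of the secondary granule stage, measured 151 CPM in mouse 1 and 206 CPM in mouse 3, both wild type, as against 123 CPM in knockout mouse 5 and 153 CPM in knockout mouse 6, and the groups overlapped. Cebpd (log2 fold change -0.29, edgeR adjusted p = 0.515) and Spi1, the gene of PU.1 (-0.20, edgeR adjusted p = 0.583), did not pass.

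Markers of other cells in the same libraries moved as follows, and their part in the values of the 7 genes was not tested. The 10 neutrophil markers other than the 7 genes summed to 11294 (mouse 1) and 16587 CPM (mouse 3) in wild type and to 8280 (mouse 5) and 8289 CPM (mouse 6) in knockout. For 9 of the 10 the groups did not overlap, with knockout the lower, against 20.9% of all genes. The 17 monocyte and macrophage markers summed to 3034 and 3459 CPM against 2863 and 3174 CPM, and the groups overlapped. The 13 stem and progenitor markers summed to 872 and 656 CPM against 737 and 697 CPM, also with overlap, and the median difference of wild type mouse 3 from mouse 1 was -0.53 on the log2 scale there. The 10 megakaryocyte markers were higher in knockout, at 272 and 246 CPM against 397 and 347 CPM. Ppbp and Pf4 rose by quasi-likelihood, 2 of the 5 genes called higher in the whole table. DESeq2 and the likelihood ratio test called 4 of these markers higher each, against 47 and 57 of all 15607 genes. Scaling by total counts, no robust estimation and the 1 CPM filter gave 1 each, and limma voom 0. Neither call held without knockout mouse 5. The summed level of the 13 stroma and endothelium markers was also higher in knockout, at 141 and 254 CPM against 779 and 734 CPM. Their log2 fold changes ranged from -0.16 to 4.08, so the rise was not shared by all 13. The wild type mice differed widely in Col1a1, Col1a2 and Sparc, with mouse 3 above mouse 1 by 4.07, 3.37 and 2.42 on the log2 scale. Timp3 rose, the 1 quasi-likelihood call among the 13. Of these 13, DESeq2 called 5 higher and the likelihood ratio test 6, where the whole table had 47 and 57 such calls. Limma voom called 0 of them, as did quasi-likelihood without robust estimation. The call of Timp3 did not hold without knockout mouse 5. Of all markers measured, Lum in wild type mouse 1 was the only one at 0 counts in a library.

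The summed levels of erythroid markers (2883 and 3441 CPM for wild type against 4167 and 3307 CPM for knockout), of eosinophil, basophil and mast cell markers (4954 and 3292 against 4112 and 3648 CPM) and of T and NK cell markers (586 and 462 against 463 and 467 CPM) overlapped between the groups. B cell markers summed to 246 and 276 CPM in wild type, and to 229 and 185 CPM in knockout, without overlap. For 5 of these 10 the groups did not overlap, with knockout the lower, against 20.9% of all genes. The quasi-likelihood test called 0 of the 10. Median log2 fold changes were -0.35 for B cell markers and -0.35 for T and NK cell markers. They were -0.22 for eosinophil, basophil and mast cell markers and 0.15 for erythroid markers.

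The mean profile of the 7 genes, as log2 CPM centred on each gene's own mean, was 0.15 in mouse 1 and 0.48 in mouse 3, both wild type, as against -0.31 and -0.32 in the knockout mice. Of 9216 other genes with a mean of at least 10 CPM, the 8 nearest to it had root mean square differences of 0.024 to 0.045 on that scale over the 4 libraries. They were Pilra, Mapk13, Tinagl1, Plaur, Slco4c1, Fpr1, Mcemp1 and Trpm2. Pilra, a paired immunoglobulin-like receptor, was the nearest, with 44.0 and 54.3 CPM in the wild type libraries and 31.9 and 32.6 CPM in the knockout libraries. The most abundant of the 8 was Mcemp1, at 96.4 and 118 CPM in wild type against 68.9 and 73.7 CPM in knockout. With 4 libraries, many genes can lie this close, and the likeness is given as a description.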

How the data were processed

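Per the labels' protocols, SMART-Seq v4 cDNA was made into Nextera XT libraries, a chemistry that does not mark strand. The submitters' processing notes name Trimmomatic 0.40, STAR 2.5, edgeR 3.28.1 and mm10. For the counter and annotation release, the sources used here give no name. The deposited table holds whole-number counts per gene, not normalized. It also holds log2 CPM and log2 RPKM values, the log2 fold change and the p-values of the authors' own comparison, per the file headers. A further 2 columns of per-sample values match no labelled sample and were not used.

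Counts were fitted with edgeR 4.0.16 in R 4.3.3 (TMM, robust quasi-likelihood F test, Benjamini-Hochberg adjustment over all 15607 genes, threshold 0.05), and filterByExpr removed 0 genes. SE values come from the F statistic. Means ± SD are over 2 mice, a mouse being a replicate per the labels, and 2 residual degrees of freedom remain per gene. RPKM values are the deposited ones put on the linear scale. The procedure was tested on simulated counts with planted changes larger than those of the 7 genes, so that test does not bear on their values. Lists held 211 symbols, of which 189 were in the table. From each list the genes past the threshold and up to 4 with the smallest p could be named, and from gene families the up to 4 most abundant. Pilra and the other nearest profiles follow from a prior count of 2, a mean of at least 10 CPM and no Gm or Rik symbol. Ngp, Kit, Cd34, Ly6g, Lum, Col1a1, Col1a2 and Sparc are also named for their levels or differences, chosen after their values were seen. The 7 genes and the lists were chosen with earlier results of these data known. Promoter stretches are from RefSeq. Alternatives were DESeq2 1.42.0 size factors and Wald test, total counts, limma 3.58.1 voom, the likelihood ratio test, no robust estimation, other filters and removal of each library.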

Additional observations from a re-analysis of the deposited data

How the results depend on the processing

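The log2 fold changes of all 7 genes were negative under each of the 12 alternatives. Scaling with DESeq2 size factors, and no filter, left every count of calls within 1.5 times its value. Scaling by total counts did so for the whole table, the 7 genes and the listed genes together, but gave 1 call in place of 0 for secondary and tertiary granule genes and 1 in place of 2 for megakaryocyte markers. DESeq2 called 216 genes in all, 5 of the 7 and 37 of the other listed genes, against 21, 1 and 6 by quasi-likelihood. It added S100a8 (-0.77), S100a9 (-0.77), Wfdc21 (-0.64) and Anxa1 (-0.69). The likelihood ratio test called 177 genes, 5 of the 7 and 31 listed, adding S100a8 (-0.77), S100a9 (-0.77), Wfdc21 (-0.64) and Anxa1 (-0.69). Limma voom called 0 genes, 0 of the 7 and 0 listed (1363 genes at an unadjusted p under 0.05), with Retnlg at -0.91 (adjusted p = 0.0923). Without robust estimation 4 genes were called, 0 of the 7 and 1 listed, with Retnlg at -0.92 (adjusted p = 0.0788). With a filter of 1 CPM in 2 libraries 10 genes were called and 0 of the 7, with Retnlg at -0.92 (adjusted p = 0.0520). The cause was not tested.

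Leaving out each library in turn gave 5 to 844 calls in all, 0 to 6 among the 7 and 0 to 55 among the listed genes. Calls were most without wild type mouse 3 (844 and 55 listed) and fewest without knockout mouse 5 (5 and 0). Without wild type mouse 1 there were 289 and 44, and without knockout mouse 6 there were 18 and 3. The left-out fits assume that the lone mouse varies like the complete pair. The ranges of log2 fold change were -0.97 to -0.55 for S100a8, -0.99 to -0.52 for S100a9, -1.01 to -0.83 for Retnlg, -0.81 to -0.47 for Wfdc21, -0.69 to -0.23 for Pglyrp1, -0.72 to -0.68 for Anxa1 and -0.40 to -0.046 for Hp.
No paired analysis was possible because the groups share no mouse number.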
